A study of Mus musculus with 4 samples.

Results

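The long noncoding RNA genes Gm28928, Gm13629, Malat1, Miat and Snhg11 were followed through the postnatal maturation of the mouse superior colliculus, the layered midbrain roof that takes in visual signals among others. The 5 genes were found by symbol among the 31053 genes of the deposited matrix, and all 5 were present. They were picked because earlier results on these same nuclei showed that their levels differed between stages, so those differences are given as a description and nothing was tested on them. Nuclei came from superior colliculus of C57BL/6J mice collected on embryonic day 19 (E19) or 4, 8 or 21 days after birth (P4, P8, P21), with 1 library per stage made from pooled animals. The labels name no treatment and no allele, and give neither sex nor number of the animals.

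Long noncoding RNAs are transcripts that are made and often spliced like messenger RNAs but are not known to be translated. Malat1 RNA gathers in nuclear speckles, bodies rich in splicing factors, and Miat RNA forms a separate nuclear body in neurons and holds repeats of a sequence that resembles the intron branch point. Snhg11 is a host gene, whose introns carry small nucleolar RNAs, and Gm28928 and Gm13629 are catalogued loci without an established function. Because such RNAs stay largely in the nucleus, sequencing of nuclei captures them well, and the 10x 3′ chemistry primes on stretches of A, either a tail or a run of A inside the transcript.

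The loci differ in size and surroundings (GENCODE M21, build GRCm38). Gm28928 (ENSMUSG00000100851) lies on chromosome 1, 124505757 to 124846039, minus strand, and spans 340.283 kb with 1 spliced transcript of 1443 bases in 3 exons. Its nearest coding genes are Dpp10 and Actr3, 460197 and 546865 bases away. Gm13629 (ENSMUSG00000087301) lies on chromosome 2, 66440880 to 66546026, plus strand, begins 39 bases from the start of the sodium channel gene Scn1a on the other strand, and overlaps 65947 bases of the sodium channel gene Scn9a on the other strand. Malat1 (ENSMUSG00000092341, chromosome 19, 5795690 to 5802672, minus strand) has a longest transcript of 1 exon and 6983 bases. Miat (ENSMUSG00000097767, chromosome 5, 112213228 to 112229395, minus strand) has 6 transcripts, the longest with 9163 bases in 7 exons, and is overlapped on the other strand by the noncoding gene Gm26953. Snhg11 (ENSMUSG00000044349, chromosome 2, 158375638 to 158386145, plus strand) contains 2 annotated small nucleolar RNA genes; GENCODE M21 files it as protein-coding and RefSeq as a long noncoding RNA.

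Sequences of 4 of the 5 loci show the features that bear on how these RNAs are made and captured, each written 5′ to 3′ on the strand of the gene. The Malat1 stretch (chr19:5795921-5796076, exon 1, minus strand) is shown because the mature RNA ends in an A-rich tract that pairs with U-rich motifs; capitals mark the A-rich tract and, within 100 bases before it, stretches of 10 or more bases with 4 or more T on both sides of 1 or 2 other bases. The annotated transcript runs on for 292 bases after that tract, beginning with the tRNA-like small RNA that is cut away. The 2 Miat stretches (chr5:112217309-112217460 and chr5:112216752-112216812, exon 7, minus strand) carry the branch-point-like TACTAAC in capitals. The last 120 bases of Gm28928 (chr1:124505757-124505876, exon 3, minus strand) hold the polyadenylation hexamer AATAAA in capitals. The start of Gm13629 (chr2:66440841-66440929, plus strand, RefSeq promoter table, GRCm38.p6) has in capitals the 39 bases that lie between its start and that of Scn1a, followed by the first 50 bases of its exon 1.
Malat1: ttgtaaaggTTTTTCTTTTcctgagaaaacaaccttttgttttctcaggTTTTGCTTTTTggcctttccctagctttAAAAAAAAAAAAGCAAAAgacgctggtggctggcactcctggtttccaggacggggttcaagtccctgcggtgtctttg
Miat, first stretch: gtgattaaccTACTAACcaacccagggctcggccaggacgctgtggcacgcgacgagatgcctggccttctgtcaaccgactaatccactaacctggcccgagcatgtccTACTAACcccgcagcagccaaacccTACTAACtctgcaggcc
Miat, second stretch: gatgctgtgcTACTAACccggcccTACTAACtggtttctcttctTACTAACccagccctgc
Gm28928: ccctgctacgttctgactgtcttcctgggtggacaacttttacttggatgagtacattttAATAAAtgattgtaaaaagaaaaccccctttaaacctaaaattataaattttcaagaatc
Gm13629: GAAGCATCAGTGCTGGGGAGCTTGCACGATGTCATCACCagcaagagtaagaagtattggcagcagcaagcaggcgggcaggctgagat

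TACTAAC, searched on the RNA strand alone, occurred 6 times in the longest Miat transcript, 1 time in Gm28928 and at 0 places in the longest transcripts of Malat1 and Gm13629. At least 1 copy was found in 3.78% of the 18930 long noncoding transcripts of GENCODE M21. Of the 223 with 5000 bases or more, 0 outside Miat held as many as 6. Of 162808 windows of 152 bases, laid end to end without overlap, 2 held 3 or more copies (0.00123%), and 1 of those was in Miat. The window length is that of the first stretch, which was itself placed on its motifs. Fixed windows can cut a cluster apart, so this share can understate how often such clusters occur. A run of 12 A, like the one in Malat1, was present in 5.30% of the long noncoding transcripts, and AATAAA in the last 120 bases of 32.2%. These are matches of letters and not measured sites.

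The libraries held 2249 to 2585 nuclei and 19277512 to 31325079 unique molecular identifiers (UMIs, counted RNA molecules), and median depth per nucleus was highest at P21. Of the 9724 nuclei, 18 shared one of 9 barcode sequences with another library. The authors' neuron classes carried their markers. The summed level of Slc17a6 and Slc17a7 was 179 to 286 counts per 1000000 UMIs (CPM) in excitatory and 8.49 to 46.3 CPM in inhibitory neurons. That of Gad1, Gad2 and Slc32a1 was 680.3 to 950.3 CPM in inhibitory and 34.6 to 58.6 CPM in excitatory neurons. A UMI of Xist was found in 0.967% of nuclei at E19 and in 40.7% to 68.1% at the later stages, so the share of female nuclei differs between the libraries and cannot be told apart from stage. Levels below are CPM of summed UMIs with exact Poisson intervals, and log2 ratios carry 5 CPM added to both values; all intervals are at 95% and cover counting error only. With 1 library per stage there was no test between stages. Median-of-ratios scaling in place of CPM moved all genes by log2 steps of −0.044 at E19 and 0.073 at P21 in excitatory neurons, and by −0.043 and 0.071 in inhibitory neurons, so ratios smaller than the gap between these have no fixed sign.

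Summed over a neuron class, Gm28928 was the member whose level differed most steadily with age. From E19 through P4 and P8 to P21 excitatory neurons measured 152 CPM (145 to 160), 405 CPM (394 to 415), 1094 CPM (1076 to 1112) and 1561 CPM (1541 to 1581). The same order of stages gave 61.6 CPM (55.4 to 68.2), 187 (177 to 198), 388 (377 to 400) and 868 (851 to 885) in inhibitory neurons. Each stage lay above the one before in both classes, with intervals apart. The P21 level was 10.2-fold the E19 level in excitatory and 14.1-fold in inhibitory neurons, which ranked 7 of 7650 genes and 6 of 7807 by log2 ratio. These ratios belong to the contrast for which the gene was picked, and they are read against the background of all genes further on. Excitatory neurons held more of it than inhibitory neurons in all 4 libraries, by 2.47-fold (2.21 to 2.78), 2.16-fold, 2.82-fold and 1.80-fold (1.76 to 1.84) in order of age.

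**Figure D1:**
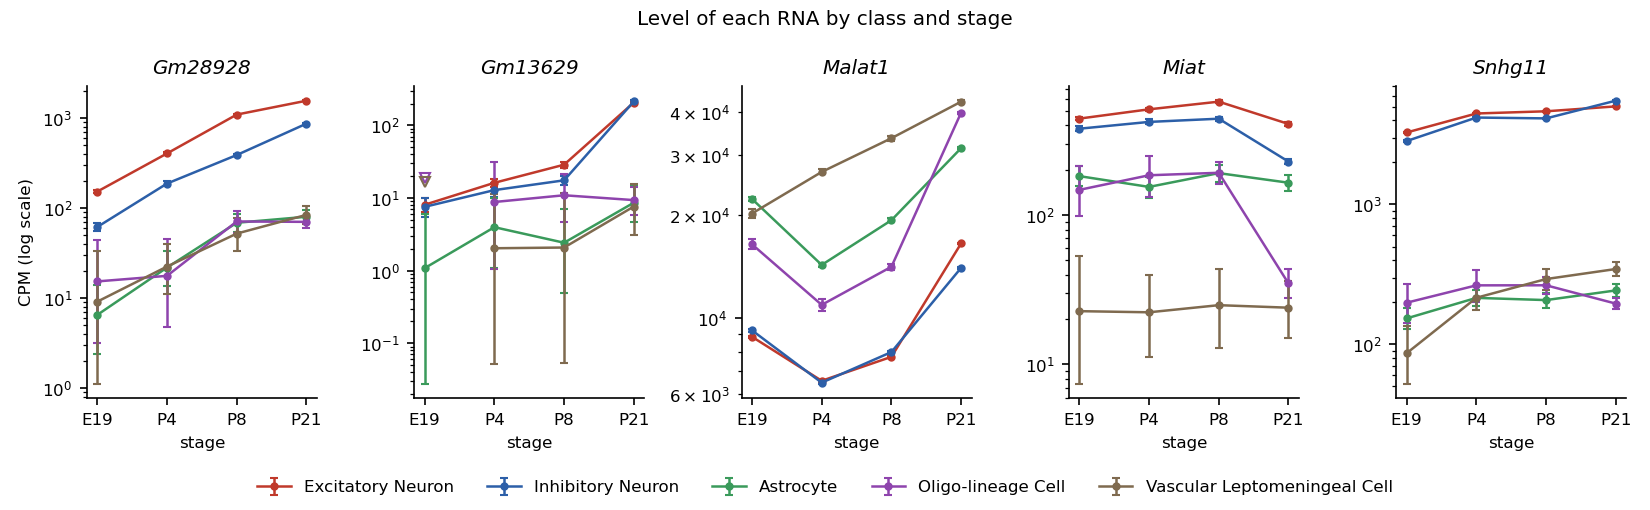
Level of each RNA (CPM, log axis, own scale per panel) at the 4 stages in the 5 largest classes; points are the sum over 1 library, bars are exact 95% Poisson intervals and open triangles are upper limits where the count was 0. Gm28928 in excitatory neurons climbs from 152 to 1561 CPM, Malat1 is lowest at P4 in 4 of the 5 classes, and Miat in the oligodendrocyte lineage drops from 192 CPM at P8 to 34.9 CPM at P21.

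Gm28928 was unevenly spread over the neuron subtypes. At P21 the excitatory subtypes EN5, EN12 and EN6 stood at 4294 CPM (4174 to 4417), 2962 CPM and 2820 CPM, and EN8 at 406 CPM (372 to 441). EN5 and EN6 also led at E19, at 435 and 466 CPM, where their intervals overlapped. Among the excitatory subtypes EN7 stood apart at P4: its 191 nuclei held 19 UMIs, 6.85 CPM (4.12 to 10.7), while EN5 in the same library held 2069 CPM. Most EN7 nuclei came from the P4 library, and without them the excitatory log2 ratio from P4 to P8 was 1.14 in place of 1.42. With every subtype given the same weight it was 0.63, below 2-fold. Among inhibitory subtypes IN4 went from 14.4 CPM at E19 (4.67 to 33.6) to 1838 CPM at P21 (1760 to 1918), the largest difference of any neuron subtype (log2 ratio 6.57). IN10 stood at 9.84, 57.4, 50.8 and 35.3 CPM at the 4 stages, and its E19 and P21 intervals overlapped. It was the lowest inhibitory subtype at P8 and P21, by intervals apart from the next. From E19 to P21 the level was higher in all 11 excitatory and all 12 inhibitory subtypes with 20 or more nuclei at both stages, with intervals apart in 11 and 11. In single steps, excitatory subtypes lower by intervals apart numbered 2 of 13, 1 of 11 and 1 of 11 in order of age. Inhibitory ones numbered 0, 0 and 1 of 12.

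More nuclei held Gm28928 at later stages, and those that did held more UMIs of it, a count not adjusted for depth. In excitatory neurons 1757 UMIs lay in 241 nuclei at E19 and 22797 UMIs in 531 nuclei at P21. Of excitatory nuclei, 18.0% had a UMI in the E19 library, whose median depth was 8051.5 UMIs, and 77.9% in the P21 library, whose median depth was 19601. After every nucleus was thinned to 2300 UMIs the shares, in order of age, were 11.4% (9.78 to 13.3), 25.2%, 51.3% and 58.5% (54.7 to 62.2). The inhibitory shares after thinning were 5.82%, 17.8%, 33.8% and 49.7%. With nuclei split by depth into 3 equal bins within a stage, shallowest first, excitatory neurons stood at 1402, 1842 and 1450.0 CPM at P21 and at 490.5, 447 and 339.8 CPM at P4. Inhibitory neurons stood at 306, 382 and 428 CPM at P8 and at 764, 968 and 847 CPM at P21, so depth and level were related in different ways by class and stage.

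In glia and vascular cells Gm28928 was low and also differed with age. Astrocytes stood at 6.48 CPM at E19 (6 UMIs) and 79.95 CPM at P21 (130 UMIs), oligodendrocyte-lineage nuclei at 15.3 CPM (3 UMIs) and 70.1 CPM, and vascular leptomeningeal nuclei at 9.09 CPM (2 UMIs) and 83.9 CPM. Microglia stood higher, at 17.7 CPM at E19 (1 UMI in 13 nuclei) and 207 CPM at P21 (131 to 311, 23 UMIs in 33 nuclei). The summed level of the neuron markers Snap25, Syt1, Rbfox3 and Stmn2, all 4 detected, was 663 CPM at E19 and 386 CPM at P21 in astrocytes, against 2256 to 3658 CPM in neurons. Neuronal RNA was thus measured in these classes too, and its part in the Gm28928 counts there was not tested. In the class labelled epithelial, whose listed markers Foxj1, Ttr and Epcam summed to 0 to 111 CPM with Epcam at 0 in all 4 libraries, 134 of the 135 Gm28928 UMIs at P4 came from 1 of 17 nuclei, the deepest at 22036 UMIs, which also held 37 UMIs of neuron markers.

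Gm13629 stayed low through P8 and stood far higher at P21. Its excitatory levels, youngest to oldest, were 8.06 CPM (6.51 to 9.88), 16.2 (14.2 to 18.4), 28.7 (25.9 to 31.8) and 206 (199 to 214). Its inhibitory levels were 7.55 CPM (5.51 to 10.1), 12.8 (10.2 to 15.9), 17.5 (15.1 to 20.2) and 214 (205.1 to 222). The last step was 7.19-fold in excitatory and 12.2-fold in inhibitory neurons, and the whole span 25.6-fold (20.8 to 31.8) and 28.3-fold (21.1 to 38.9). By log2 ratio over the whole span it ranked 2 of 7650 genes in excitatory and 2 of 7807 in inhibitory neurons. These are the genes with 20 CPM or more at the higher stage, a limit that Gm13629 passed through its P21 level. The gene was picked for its difference between stages, so nothing is read from this rank. The classes did not differ beyond counting error at E19, P4 and P21, where the excitatory over inhibitory ratio was 0.967 (0.916 to 1.02); at P8 excitatory neurons held 1.64-fold more (1.38 to 1.96).

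The P8 to P21 difference in Gm13629 was shared by every neuron subtype measured at both stages. The level was higher in 11 of 11 excitatory and 12 of 12 inhibitory subtypes, all with intervals apart, and the smallest log2 ratio was 2.32, in EN4. At P21 the inhibitory subtypes IN11 and IN1 led, at 326 CPM (275 to 383) and 321 CPM (293 to 351), with overlapping intervals. IN3 was the lowest, at 51.7 CPM (42.2 to 62.7), apart from the next, IN4, at 143 CPM (122 to 167). Among excitatory subtypes EN5 was the lowest, at 96.96 CPM (79.6 to 117), although it was the highest for Gm28928. At E19 and P4 no 2 neighbouring subtypes in the order of levels were apart, and IN3 had 0 UMIs in both libraries, which allows up to 12.2 and 11.6 CPM. After thinning, the share of nuclei with a Gm13629 UMI was 2.09%, 2.57%, 5.07% and 31.96% in excitatory and 2.02%, 2.98%, 3.58% and 33.5% in inhibitory neurons. Astrocytes, oligodendrocyte-lineage and vascular leptomeningeal nuclei stood at 7.63 to 9.35 CPM at P21, and 1.74% to 2.61% of their nuclei held a UMI after thinning.

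The neighbours of Gm13629 moved in different ways. Scn1a, which encodes a voltage-gated sodium channel of axons and is read from the facing start, stood at 212, 280.4, 374 and 520.5 CPM in excitatory and at 181, 253, 281 and 485 CPM in inhibitory neurons from E19 to P21. Scn9a, a sodium channel gene best known from sensory neurons, overlaps Gm13629 on the other strand. It stood at 230.2, 272, 199 and 54.8 CPM in excitatory and at 158, 204, 135 and 34.2 CPM in inhibitory neurons. Scn1a was thus highest where Gm13629 was highest, and Scn9a lowest. Over 85 neuron subtype and stage sums the Pearson correlation of log2 levels with Gm13629 was 0.83 for Scn1a and −0.39 for Scn9a. Scn1a was not among the 10 genes most correlated with Gm13629 over these sums, which ran from 0.92 (Upp2) to 0.87 (Kcna1). A value of 0.83 is thus not particular to the neighbouring gene. These sums share libraries and stages, so the correlations describe them and are no test. The strand setting of the counting is not known here, so UMIs over the 65947 shared bases of Gm13629 and Scn9a could be split between them. Scn7a, the next gene on the far side, stayed between 1.01 and 6.78 CPM in the class sums. Among the 85 neuron subtype and stage sums its highest level was 53 CPM.

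**Figure D2:**
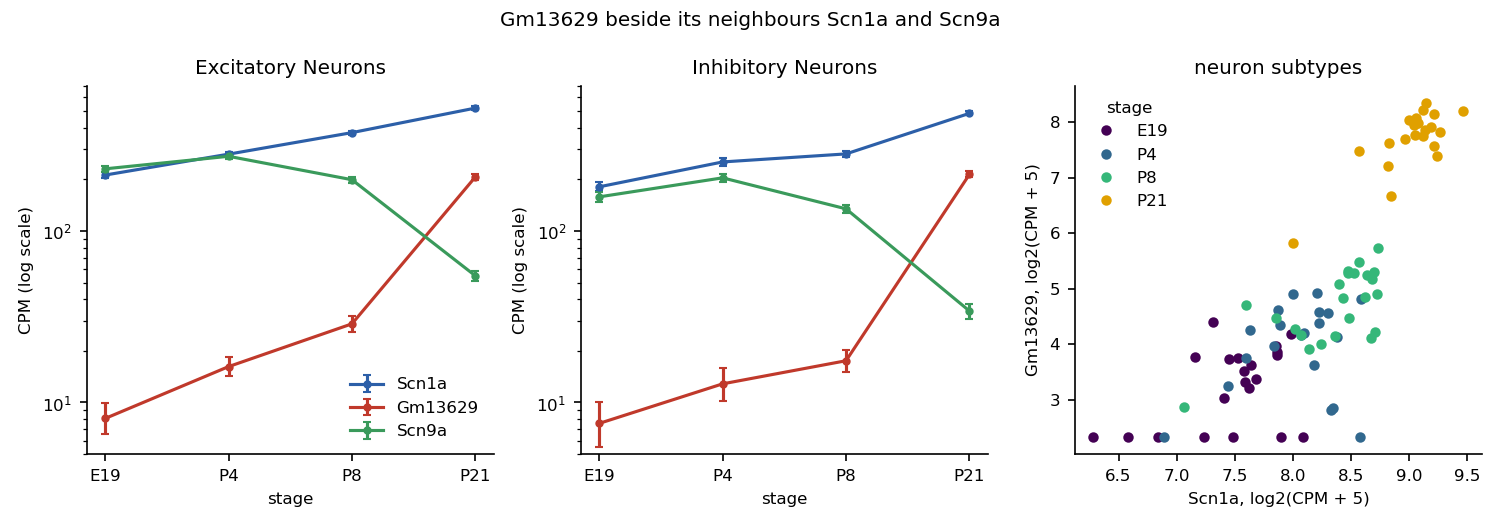
Levels of Gm13629, Scn1a and Scn9a (CPM, log axis, bars are exact 95% Poisson intervals) by stage in both neuron classes, and, at the right, Gm13629 against Scn1a in 85 neuron subtype and stage sums on the log2(CPM + 5) scale, coloured by stage. Between P8 and P21 Gm13629 in excitatory neurons goes from 28.7 to 206 CPM while Scn9a goes from 199 to 54.8 CPM.

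Malat1 was lower at P4 than at any other stage in neurons, and highest at P21. The excitatory series, youngest first, was 8837 CPM (8782 to 8891), 6570.2, 7720.0 and 16571 CPM (16505 to 16637), and the inhibitory series 9228, 6489, 7972 and 14055 CPM. From E19 to P4 it was lower in 13 of 13 excitatory and 12 of 12 inhibitory subtypes, and from P8 to P21 higher in 11 of 11 and 12 of 12, all with intervals apart. The P8 to P21 ratio was 2.15-fold in excitatory and 1.76-fold in inhibitory neurons. The summed level of 7 oligodendrocyte-lineage markers, all detected, went from 63.2 to 245 CPM in excitatory and from 82.2 to 317 CPM in inhibitory neurons over the same step, and its part in the Malat1 level was not tested. The excitatory over inhibitory ratio was 0.958, 1.01, 0.968 and 1.18 at the 4 stages. The highest excitatory subtype at P21, EN8 at 19997 CPM, was 1.37-fold above the lowest, EN4 at 14608 CPM.

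Malat1 was found in every one of the 9724 nuclei and was among the 4 RNAs with most UMIs in both neuron classes at each stage. The median neuron carried 0.84% of its UMIs as Malat1 at E19 and 1.48% at P21 in the excitatory class, and 0.89% and 1.28% in the inhibitory class. At P21 5% of excitatory nuclei were below 0.89%, which is above the median at E19, P4 and P8. Deeper nuclei held a larger share at P21, 13279, 15551 and 18401 CPM over the 3 depth bins of excitatory neurons, against 8504, 8631 and 9114 CPM at E19. These bins are not matched between stages, since the shallowest at P21 had a median of 12716 UMIs and the deepest at E19 one of 11548.5. In inhibitory neurons the deepest E19 bin (median 9340.0 UMIs) stood at 9229 CPM and the shallowest P21 bin (median 9402) at 12164 CPM.

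Outside neurons most classes held more Malat1, and its course differed by class; the dividing nuclei at P21, at 15693 CPM in 10 nuclei, lay below excitatory neurons. Astrocytes followed the neurons, at 22345, 14328, 19361 and 31460 CPM. Vascular leptomeningeal nuclei had no low value at P4, measuring 20255 CPM (19665 to 20859), 26793 (26338 to 27254), 33620 and 42994 with age. Microglia held 18008, 12538, 16436 and 19726 CPM in 13 to 33 nuclei. Oligodendrocyte-lineage nuclei stood at 16463, 10952, 14152 and 39953 CPM, and within P21 the level was 16041 CPM in precursors, 27016 in committed and 48532 in myelinating oligodendrocytes. Precursors alone stood at 15766 CPM at P8 and 16041 at P21, and committed oligodendrocytes at 9817 and 27016 CPM. Myelinating nuclei numbered 187 of 306 at P21, and the part of this share in the P21 value of the lineage was not tested. The median percent of mitochondrial UMIs was also highest at P4, at 0.614 in excitatory neurons against 0.532 at E19 and 0.228 at P8, and at 1.01 in vascular leptomeningeal nuclei against 0.713 at E19. Its part in the low P4 level was not tested.

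**Figure D3:**
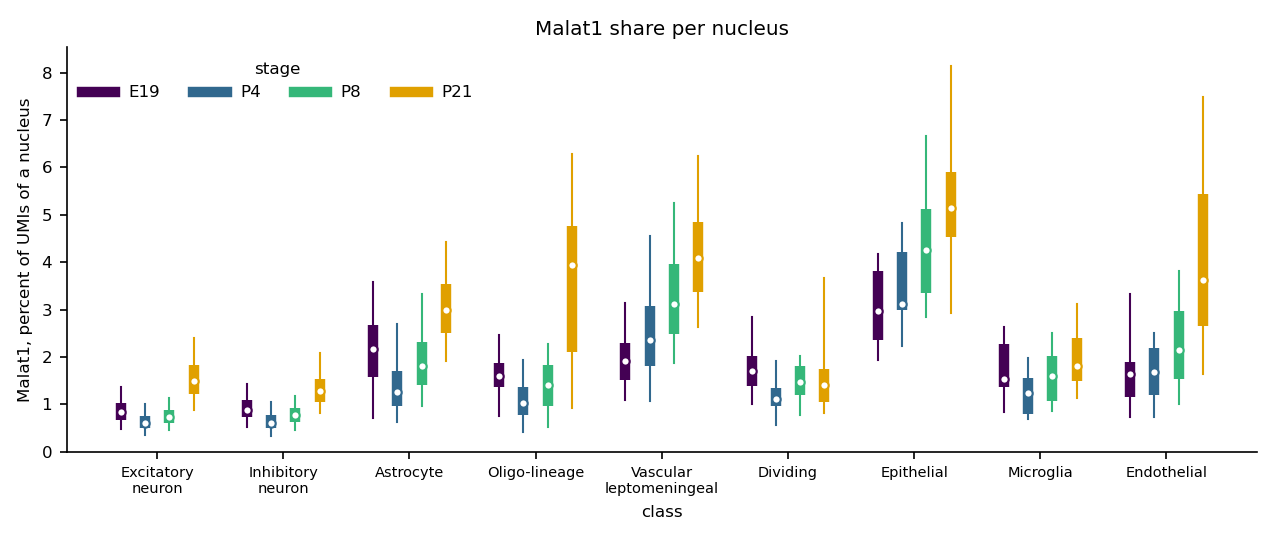
Malat1 as percent of the UMIs of a nucleus, by class and stage; circles are medians, thick bars the middle 50% of nuclei and thin bars the 5th to 95th percentile, all over nuclei of 1 library. The excitatory medians are 0.84%, 0.61%, 0.73% and 1.48% with age, and the oligodendrocyte lineage widens at P21, when its median is 3.95%.

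Miat was the member with the smallest difference between E19 and P21 in excitatory neurons and the only one that was lower at P21 than at P8 in both neuron classes. With age, excitatory neurons measured 443 CPM (431 to 455), 511, 575 (563 to 589) and 408 CPM (398 to 418). Inhibitory neurons measured 379, 421, 442 and 228 CPM (219.5 to 237). It was lower at P21 than at P8 in all 11 excitatory and all 12 inhibitory subtypes, with intervals apart in each. The log2 ratio of that step was −0.49 in excitatory and −0.94 in inhibitory neurons, and the excitatory over inhibitory ratio went from 1.17 at E19 to 1.79 at P21 (1.71 to 1.87). IN10 and IN3 had the lowest P21 levels, with intervals of 68.8 to 128 CPM (43 UMIs) and 93.0 to 122 CPM (213 UMIs), against 388 and 387 CPM in the P8 library. EN6 was the lowest excitatory subtype at P21, at 211 CPM (184 to 240.3). Between E19 and P21 the excitatory log2 ratio was −0.12 (−0.17 to −0.064) by CPM, −0.0022 with median-of-ratios scaling, 0.073 with subtypes weighted alike and 0.014 after thinning, so its sign is not settled. Over the same span 6 excitatory subtypes were higher and 5 lower.

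Miat also separated the steps of the oligodendrocyte lineage. At P21 it stood at 144 CPM in precursors (104 to 193), 41.2 CPM in committed (25.1 to 63.6) and 12.1 CPM in myelinating oligodendrocytes (7.30 to 18.9). Across the lineage it went from 192 CPM to 34.9 CPM (27.7 to 43.3) over the last step, a log2 ratio of −2.31 (−2.68 to −1.94). Precursors alone went from 226 CPM (187 to 272) to 144 CPM over that step. Within these nuclei the order of Miat over the 3 subtypes at P21 was the reverse of that of Malat1. Astrocytes stayed between 154 and 191 CPM, with overlapping intervals at neighbouring stages. Fibrous astrocytes held 4 UMIs at P4, 17.7 CPM (4.83 to 45.4), against 331 CPM at P8 (259.8 to 417), while protoplasmic astrocytes held 194 and 161 CPM. Gm26953, which overlaps Miat on the other strand, stayed between 3.80 and 8.61 CPM in neurons.

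Snhg11 was an abundant neuronal RNA that was higher after birth. With age, excitatory neurons measured 3268 CPM (3235 to 3301), 4467, 4631 and 5020.5 CPM (4984 to 5057), and inhibitory neurons 2838, 4178, 4121 and 5515 CPM (5472 to 5559). By log2 ratio the largest step was from E19 to P4 (0.45 in excitatory and 0.56 in inhibitory neurons), when it was higher in 13 of 13 excitatory and 12 of 12 inhibitory subtypes with intervals apart. Inhibitory neurons of the E19 library stood at 1891, 2303 and 3562 CPM over the 3 depth bins, shallowest first. At P4 these bins stood at 2992, 4092 and 4655 CPM, the shallowest below the deepest of E19. The part of depth in this step was not tested. IN3 began lowest of all neuron subtypes, at 513 CPM at E19 (436 to 601), and stood at 1395, 2378 and 5140 CPM at the later stages, a log2 ratio of 3.31 over the span. At P21 it was no longer the lowest, and the 12 inhibitory subtypes lay within 1.37-fold of each other, against 7.55-fold at E19. From E19 to P21 the inhibitory level was 1.94-fold higher, a log2 ratio of 0.96, and with subtypes weighted alike the log2 ratio was 1.44. Other classes held far less, 153 to 243 CPM in astrocytes, 196 to 264 CPM in the oligodendrocyte lineage and 86.4 to 346 CPM in vascular leptomeningeal nuclei. Microglia went from 124 CPM at E19 (7 UMIs) to 846 CPM at P21 (684 to 1036, 33 nuclei), where neuron markers summed to 637 and 702 CPM; the part of neuronal RNA in that level was not tested. Of the 94 UMIs at P21, 42 came from 1 nucleus, and without it the level was 516 CPM (385 to 676).

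**Figure D4:**
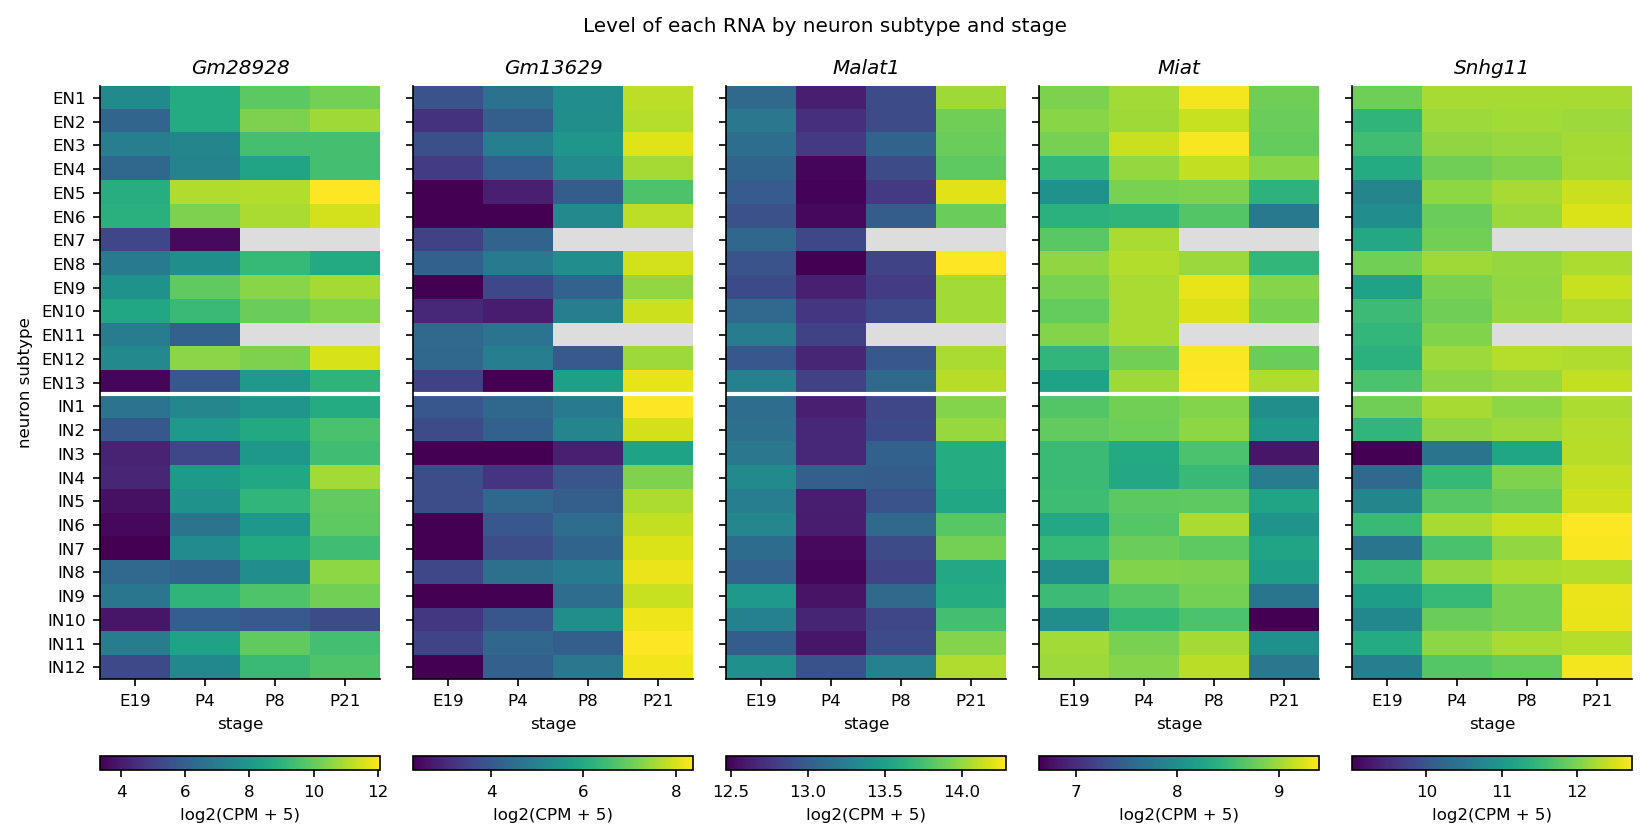
Level of each RNA on the log2(CPM + 5) scale, own colour scale per panel, in the 13 excitatory (EN) and 12 inhibitory (IN) neuron subtypes by stage; grey marks fewer than 20 nuclei. For Gm13629 P21 is the brightest stage in every subtype not grey at P21, with IN3 the least bright of them (51.7 CPM). IN3 is dark at E19 for Snhg11 (513 CPM), and EN5 is the brightest at P21 for Gm28928 (4294 CPM).

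Read per length of locus, the members covered a wide range. In excitatory neurons at P21 Malat1 stood at 2373 CPM per kb of gene span, Snhg11 at 478, Miat at 25.2, Gm28928 at 4.59 and Gm13629 at 1.96. At E19 the same measures were 1265, 311, 27.4, 0.45 and 0.08 CPM per kb. Malat1 and Snhg11 thus stood above the other members at both stages, in the same order. Intronic UMIs entered the counts, so the span rather than the spliced length was used. Since priming is on stretches of A, UMIs need not scale with span, and these values do not rank abundance. In plain CPM Gm28928 stood above Miat in excitatory neurons at P21, at 1561 against 408 CPM.

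The members were set against all genes with at least 20 CPM at the higher stage. From E19 to P21 5.35% of 7650 such genes were 2-fold or more higher in excitatory neurons and 10.7% lower, and in inhibitory neurons 5.83% of 7807 were higher and 11.3% lower. Of the 5 members 2 were 2-fold or more higher in both classes, Gm28928 and Gm13629, and 0 were 2-fold or more lower. The members were picked on this contrast, so nothing is read from their count. By step, on the log2(CPM + 5) scale, Gm28928 was the 1 member past 2-fold from E19 to P4, where Gm13629 was under 20 CPM and not counted, when 0.472% of genes were that much higher in excitatory and 0.436% in inhibitory neurons, and from P4 to P8, when it was 0.361% and 0.136%. In those steps 0.701% and 0.582%, then 0.832% and 0.382%, of genes were that much lower, and 0 members were. From P8 to P21 Gm13629 and Malat1 passed it in excitatory neurons (2.15% of genes) and Gm28928 and Gm13629 in inhibitory neurons (2.62%), while 0 members were 2-fold lower against 3.20% and 3.28% of genes. Among nuclei with a Y-linked UMI and no Xist UMI the inhibitory log2 ratio of Gm28928 was 0.91 in both of these last steps, P4 to P8 and P8 to P21, and with 20 CPM added that of P4 to P8 was 0.98, all short of 2-fold. Of 221 genes of long noncoding biotypes, 49 (22.2%) were 2-fold or more higher at P21 than at E19 in excitatory neurons and 19 (8.60%) lower, with a median log2 ratio of 0.16 against −0.061 for all genes. In inhibitory neurons it was 49 and 22 of 229, with a median of 0.15 against −0.037. Both sets hold every member but Snhg11, and both counts of 49 include Gm28928 and Gm13629. These sets were not matched to all genes for level.

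**Figure D5:**
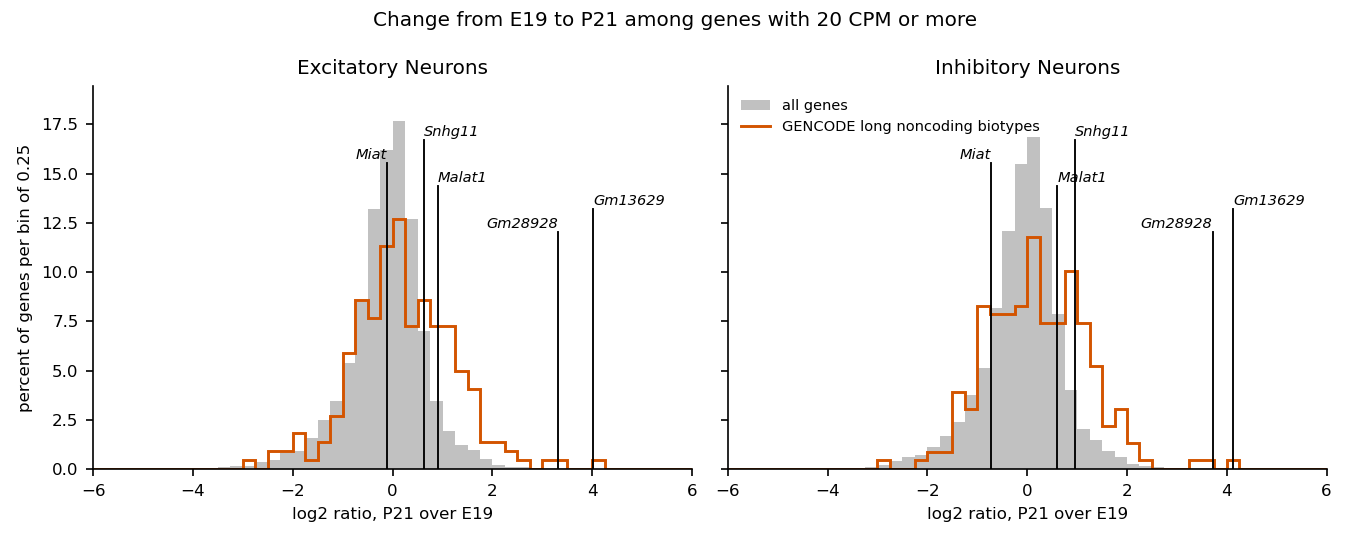
Distribution of the log2 ratio of P21 over E19 in bins of 0.25 for all genes (grey) and for genes of long noncoding biotypes (orange line) with 20 CPM or more at the higher stage, in excitatory and inhibitory neurons; vertical lines mark the members. Gm28928 (3.31 and 3.71) and Gm13629 (4.02 and 4.12) lie at the far right in both classes, and Miat (−0.12 and −0.72) lies left of 0.

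Among 43 other listed long noncoding RNAs, 23 were in the matrix and 15 in excitatory and 16 in inhibitory neurons reached 20 CPM. From E19 to P21 2 of the 15 were 2-fold or more higher and 1 lower, with a median log2 ratio of 0.49; in inhibitory neurons it was 3 and 1 of 16, with a median of 0.38. A330008L17Rik stood at 38.7 CPM at E19 and 226 CPM at P21 in excitatory neurons, and at 48.98 and 120.1 CPM in inhibitory neurons. Ftx, an X-linked RNA from the region of Xist, stood at 94.0 and 289 CPM in excitatory neurons, and the Xist share of nuclei moved with it, from 0.967% to 68.1%. Pvt1 went from 46.3 to 123 CPM in inhibitory neurons. Tug1 was the gene on the list that was lower by 2-fold, at 33.4 and 10.9 CPM in excitatory and 39.3 and 13.8 CPM in inhibitory neurons. Rmst, a midbrain and neurogenesis RNA, stood at 909 and 518 CPM in inhibitory neurons, short of 2-fold.

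Genes for nuclear bodies and the splicing machinery were listed because Malat1 and Miat RNA are known to gather with such proteins. Of 31 listed, 29 reached 20 CPM, and from E19 to P21 0 were 2-fold or more higher and 3 lower in each neuron class, a share of 10.3% that is near the background of 10.7% and 11.3%. The median log2 ratio was −0.11 in excitatory and −0.26 in inhibitory neurons. Hnrnpk, which encodes an RNA-binding protein, stood at 104 and 35.4 CPM in excitatory and at 119.9 and 41.7 CPM in inhibitory neurons. Srsf3, a splicing factor gene, stood at 97.3 and 43.5 CPM in excitatory neurons. Celf3, whose protein is known from the nuclear body that holds Miat, stood at 97.5 and 45.9 CPM in excitatory neurons. Srsf11 and Hnrnpu were at the upper end in excitatory neurons, at log2 ratios of 0.59 and 0.50.

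The genes with the most similar profile were listed over 109 subtype and stage sums of 30 or more nuclei, by Pearson correlation of log2 levels among 6017 genes. For Snhg11 they were Meg3 (0.96), an imprinted neuronal long noncoding RNA, Pacsin1 (0.96), a synaptic endocytosis gene, and 5330417C22Rik (0.94). For Gm13629 they were Coro6 (0.89), a coronin gene, Upp2 (0.86) and Sgpp2 (0.86), and for Miat Ptprn2 (0.88), a dense-core vesicle gene, Carmil3 (0.87) and Lrrc7 (0.86). For Malat1 they were Ythdf3 (0.84), which encodes a reader of methylated RNA, Aspa (0.82), an oligodendrocyte gene, and Stx16 (0.81). For Gm28928 they were Snap25 (0.76), a synaptic fusion gene, Rit2 (0.74) and Gm3294 (0.73). The sums share libraries and depth, and contrasts between neurons and glia weigh on these values. Over the 85 neuron sums alone Malat1 and Gm13629 correlated at 0.74 and Malat1 and Miat at −0.42, against 0.098 and −0.75 over all 109.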

How the data were processed

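Nuclei of superior colliculus were profiled with 10x Genomics 3′ v3 chemistry, 1 library per stage. Per the labels' design text, Cell Ranger 3.0.2 aligned the reads to a custom mm10 reference of unspliced transcripts, so intronic reads count. Neither the strand setting nor the filter on nuclei is given in the sources used here. Whole-number UMI counts per gene and nucleus were deposited by the authors, with the percent of mitochondrial UMIs and the stage, class and subtype of each nucleus, and were used unchanged. The 7 other columns of the nucleus table (clusters, plot coordinates and reference-based labels) were not used. Doublets were not called again.

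UMIs were summed per class or subtype and stage and divided by the total (CPM), with exact Poisson 95% intervals. Fold values have exact conditional intervals and no CPM added. Log2 ratios are on CPM + 5, with the exact conditional limits carried to that scale at the pooled UMIs. Counts of genes past 2-fold use the log2 ratios. Shares of nuclei have Clopper-Pearson intervals. Intervals cover counting error only. Nuclei were thinned to 2300 UMIs for shares, and 0 were left out. Subtypes needed 20 nuclei, likeness profiles 30, and a gene in a profile 100 CPM in at least 1 of them. Annotation and transcripts came from GENCODE M21, which held 31011 of the 31053 gene identifiers.

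Genes were named by a rule: the members, genes that overlap them and the nearest coding genes, the 3 most similar profiles, and the 3 largest rises and falls in each list. Members and lists were chosen with earlier results of these data known. Alternatives were other pseudocounts, scalings, weights and subsets of nuclei. Scripts were tested on simulated data. Versions were Python 3.11.15, numpy 2.4.6, scipy 1.17.1, pandas 2.3.3 and matplotlib 3.10.9.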

Additional observations from a re-analysis of the deposited data

Results flagged for a closer look

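Snhg11 went opposite ways in 2 classes between P8 and P21. The log2 ratio was 0.42 in inhibitory neurons (0.40 to 0.44) and −0.43 in the oligodendrocyte lineage (−0.67 to −0.18). The difference between the classes was not tested, since each stage had 1 library. Within the lineage, precursors stood at 279 CPM at P8 and 367 CPM at P21, and myelinating oligodendrocytes, 187 of the 306 nuclei at P21, at 159 CPM.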

How the results depend on the processing

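Of the P21 over E19 log2 ratios, all kept their sign under the alternatives except Miat in excitatory neurons (−0.12), which was 0.073 with subtypes weighted alike and 0.014 after thinning to 2300 UMIs. With median-of-ratios scaling the excitatory values were 3.43 for Gm28928, 1.02 for Malat1, −0.0022 for Miat and 0.74 for Snhg11, and the inhibitory values 0.72 for Malat1, −0.61 for Miat and 1.07 for Snhg11. With subtypes weighted alike they were 3.04 and 4.15 for Gm28928, 4.26 and 4.67 for Gm13629, 0.97 and 0.57 for Malat1 and 0.86 and 1.44 for Snhg11, excitatory first here and below. After thinning they were 3.21 and 4.06 for Gm28928, 0.84 and 0.54 for Malat1 and 0.76 and 1.18 for Snhg11, and 3.63 for Gm13629 in excitatory neurons. With nuclei weighted alike they were 0.83 and 0.53 for Malat1 and 0.76 and 1.18 for Snhg11. A pseudocount of 1 CPM gave 4.52 and 4.65 for Gm13629, and 20 CPM gave 3.01 and 3.08 for Gm13629 and 3.20 and 3.44 for Gm28928. Alternatives added after seeing the data left out EN7, kept nuclei with a Y-linked UMI and no Xist UMI, left out nuclei over 3 times the median depth, or left out the microglial nucleus with most Snhg11. Y-linked nuclei gave 3.42 and 3.33 for Gm28928 and 0.88 and 0.65 for Malat1. Without the deep nuclei Malat1 was 0.90 and 0.585, and with Malat1 taken out of the total it was 0.92 in excitatory neurons. The cause of these moves was not tested. The share of genes past 2-fold in either direction was 5.21% and 5.66% with no filter on low genes, which adds genes to the denominator.

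No paired analysis was possible because each stage had 1 library, and leaving out a library would leave out a stage. Pooled animals, sex and handling of a library cannot be told apart from stage. Low levels, such as Gm13629 outside neurons, rest on 0 to 22 UMIs per class and stage.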
